A study of Mus musculus with 13 samples.

Results

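The matrix metalloproteinases (MMPs), their tissue inhibitors (TIMPs) and the related ADAM, ADAMTS and ADAMTS-like families were examined in mouse tibialis anterior, a fast-contracting muscle at the front of the shin. Members were all genes of the deposited expression sheet whose symbol is Mmp, Timp, Adam, Adamts or Adamtsl followed by a number, with at most 1 letter after it for Mmp and Adam. This gave 50 of 13846 genes, namely 13 Mmp, 4 Timp, 12 Adam, 16 Adamts and 5 Adamtsl genes, and all 50 passed the filter on low values. RNA-seq was made from 5 WT libraries (wild-type mice), 4 mdx libraries (the mouse model of Duchenne muscular dystrophy, which lacks dystrophin through a mutation in Dmd) and 4 mdxTG libraries. The mdxTG mice carry the mdx mutation and, in addition, a transgene for sarcospan (SSPN), which spans the membrane as part of the complex around dystrophin. The promoter of the transgene and the age, sex and strain background of the mice are not stated in the sources at hand.

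These families remodel what lies between and on the surface of cells. MMPs are zinc enzymes, made as inactive precursors, that cut collagens, laminins, elastin and other matrix proteins. TIMPs bind the active site of MMPs and of some ADAM and ADAMTS enzymes and block it. ADAMs sit in the cell membrane and release the outer parts of receptors, ligands and adhesion proteins, while ADAMTS enzymes are secreted and cut proteoglycans and procollagens. In dystrophic muscle these genes are studied because fibre breakdown, inflammation, regeneration and fibrosis all involve matrix turnover.

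Levels are normalized CPM, the authors' values, in which the reads of a gene are divided by a scaled library size. The libraries had 41.74 to 53.87 M reads on the listed genes, and 3 reads were worth 0.0504 to 0.0818 normalized CPM. The labels of the groups were checked on their own genes. Sspn ranged from 101 to 136 normalized CPM in WT libraries and 109 to 119 in mdx libraries to 1583 to 2006 in mdxTG libraries. Dmd was at 124 to 255 in WT libraries, at 48.7 to 58.3 in mdx and at 53.9 to 62.3 in mdxTG. Genes of the muscle fibre (Acta1, Ckm, Myh4, Myh1, Mylpf and Tnnt3) summed to 126623 to 169545 normalized CPM in WT, to 100952 to 123604 in mdx and to 80998 to 97930 in mdxTG. These sums did not overlap between the groups and stepped down from WT to mdx to mdxTG, but the genes did not move together. Means in that order stepped down for Myh4 (54076, 33171 and 18626), Ckm and Tnnt3. They stepped up for Myh1 (11422, 14803 and 17586) and were similar for Mylpf, while Acta1 was lowest in mdx. Of the 6 genes, 2 fell in mdx against WT and 1 in mdxTG against mdx (limma adjusted p under 0.05), and 0 rose. Summed over all listed genes, normalized CPM stepped down in the same order without overlap. The part of the muscle fibre genes in the changes of the members below was not tested. Whether every library is from a different animal is not in the labels, so p-values reflect the spread between libraries, which may be technical. In the library identifiers the WT numbers form a separate series, while those of mdx and mdxTG interleave. What these numbers mark is not given. In comparisons with WT, a difference between series cannot be told apart from genotype.

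Per length of exon, a few members held most of the families' RNA. Mmp2, gelatinase A, had 25.3 normalized CPM per kb in WT, 43.8 in mdx and 64.5 in mdxTG, and by itself made up 52.4 to 70.2% of the summed MMP level in every library. The summed MMP level was 24.5 to 48.2 normalized CPM per kb in WT (median 42.2, n = 5), 58.9 to 87.2 in mdx (median 74.6, n = 4) and 81.5 to 115 in mdxTG (median 97.6, n = 4). Every mdx and mdxTG library thus lay above every WT library, while mdx and mdxTG overlapped. Timp2, which inhibits MMPs and also takes part in the activation of the Mmp2 precursor, led the inhibitors with 47.7 to 67.5% of their sum. The summed TIMP level was 56.4 to 108 normalized CPM per kb in WT (median 86.2), 79.5 to 105 in mdx (median 96.9) and 110 to 145 in mdxTG (median 127), so that the mdxTG libraries lay above the other two groups. Among membrane proteases Adam9 was highest, at 24.5 normalized CPM per kb in WT, and among secreted ADAMTS enzymes Adamts1, at 9.94. Some genes with wide changes were scarce: Mmp12 had 0.036 normalized CPM per kb in WT and Adam12 0.0678.

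**Figure D1:**
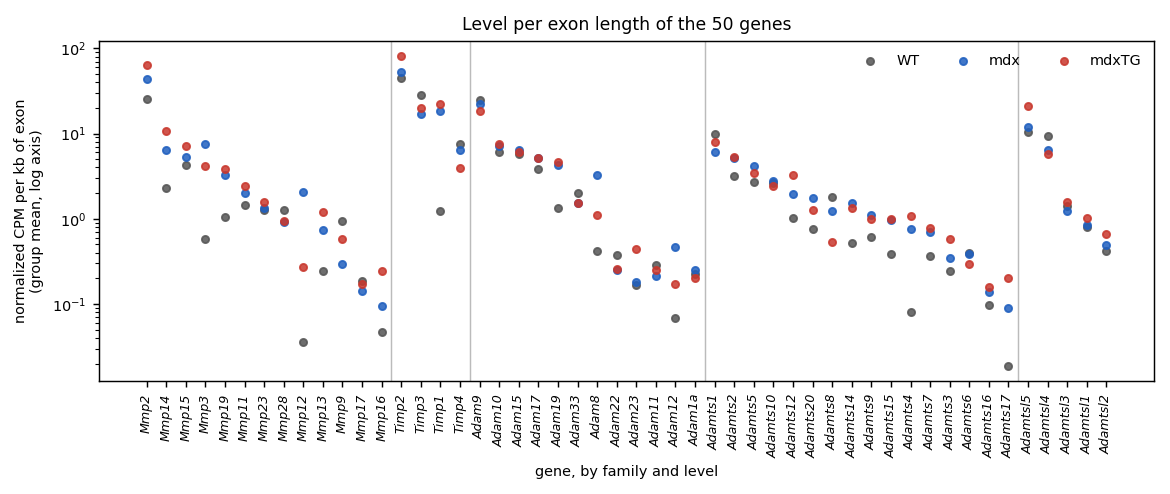
Mean normalized CPM per kb of exon (log axis) of each of the 50 genes in WT, mdx and mdxTG, ordered by family and level; each point is 1 group mean over 5 WT, 4 mdx or 4 mdxTG libraries. Mmp2, Timp2 and Adam9 are the highest of their families by group mean, and the gap between groups is widest for Mmp12, at 0.036 in WT against 2.08 in mdx.

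In mdx against WT, which addresses the loss of dystrophin, 22 of the 50 genes rose and 5 fell (limma adjusted p under 0.05), where 18.5% of all 13831 genes tested rose and 16.1% fell (34.6% in either direction). The median log2 fold of the members was 0.29, against -0.01 for all genes. By family, 6 Mmp genes rose and 1 fell, 1 Timp gene rose and 1 fell, 5 Adam genes rose and 1 fell, 10 Adamts genes rose and 1 fell, and of the Adamtsl genes 0 rose and 1 fell. In mdxTG against mdx, which addresses the transgene, 9 members rose and 6 fell, where 15.4% of all genes rose and 12.9% fell (28.4% in either direction), so the members' share is close to that of all genes. The median log2 fold was 0.11 for the members and -0.00 for all genes. In mdxTG against WT 30 members rose and 6 fell, beside 28.7% and 25.3% of all genes (54% in either direction), with medians of 0.69 and 0.02. The 3 comparisons share libraries and are not independent of each other.

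The authors' scaling bears on these counts. In plain CPM, without the scaling factors, the median log2 fold of all genes shifted to 0.20 for mdx and to 0.36 for mdxTG against WT, and to 0.13 between mdxTG and mdx. There, 27 members rose and 2 fell in mdx against WT (37.3% and 5.32% of all genes), 11 rose and 3 fell in mdxTG against mdx (25.3% and 7.09%), and 33 rose and 2 fell in mdxTG against WT (57.2% and 8.54%). The authors' deposited tables list only genes with a log2 fold above 1 in size and an authors' adjusted p no higher than 0.00992. Both limits are stricter than those of the limma counts. The tables hold 14 members for mdx against WT, 13 of them higher in mdx (7.75% of the sheet's genes are listed there). For mdxTG against mdx they hold 5 members, 2 higher and 3 lower in mdxTG (5.4% of genes), and for mdxTG against WT 19, of which 18 were higher (13.4% of genes).

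**Figure D2:**
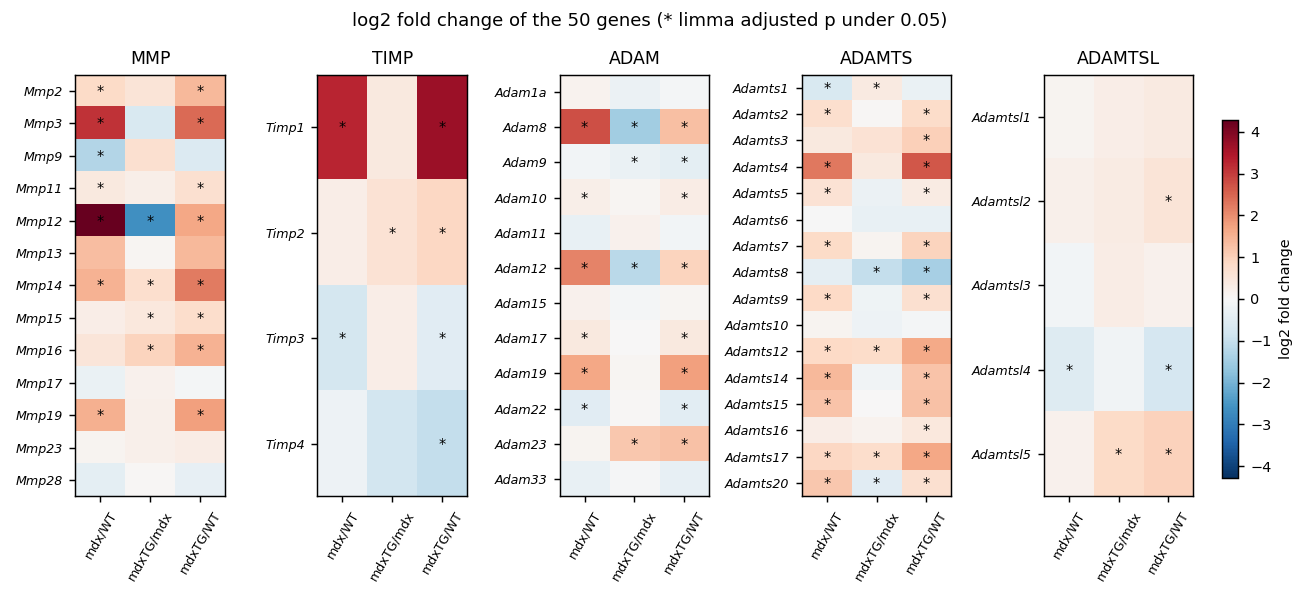
Log2 fold change (colour scale, from the limma fit on log2 of normalized CPM plus 0.5) of the 50 genes in the 3 comparisons, by family; a star marks a limma adjusted p under 0.05. The first column holds 22 rises and 5 falls, the second 9 rises and 6 falls; in plain CPM the falls number 2 and 3.

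Of the gelatinases, Mmp2 rose and Mmp9 fell in mdx against WT. Mmp2 (chromosome 8, 92827291 to 92853420, mm10) cuts denatured collagens and basement membrane collagen. It measured 48.3, 72.8, 97.1, 99.9 and 108 normalized CPM in WT replicates 1 to 5, 112, 124, 170.3 and 184 in mdx replicates 1 to 4 and 179, 262, 189.8 and 239 in mdxTG replicates 1 to 4. All mdx libraries lay above all WT libraries, and mdxTG replicates 1 and 3 were within or just above the range of mdx. Mmp2 rose in mdx against WT (log2 fold 0.81 ± 0.22 SE, limma adjusted p = 0.0106) and in mdxTG against WT (log2 fold 1.39 ± 0.22 SE, limma adjusted p = 0.000112). Between mdxTG and mdx it differed by a log2 fold of 0.57 ± 0.23 (SE, limma adjusted p = 0.0827), which did not pass. It passed with 5 alternatives: without WT replicate 1, without WT replicates 1 and 2, with only mdxTG and mdx in the fit (0.0269), in plain CPM (0.0471) and with a replicate block (0.0131). The adjusted p ran from 0.0126 to 0.217 over all alternatives. Mmp9 (chromosome 2, 164940780 to 164955850), gelatinase B, went the other way. Its levels were 1.67, 2.92, 3.02, 3.55 and 5.46 in WT, 0.917, 0.624, 1.03 and 1.65 in mdx and 0.771, 2.81, 2.49 and 2.21 in mdxTG. Every mdx library was below every WT library, by a narrow margin between mdx replicate 4, at 1.65, and WT replicate 1, at 1.67. Of the mdxTG libraries, replicate 1 was at the mdx level and the others within the WT range. Mmp9 fell in mdx against WT (log2 fold -1.26 ± 0.30 SE, limma adjusted p = 0.00525). The log2 fold of mdxTG against mdx was 0.68 ± 0.32 (SE, limma adjusted p = 0.134) and passed only without mdxTG replicate 1 among the single libraries left out and with a replicate block (adjusted p 0.0212 to 0.31 over the alternatives). That of mdxTG against WT was -0.59 ± 0.30 (SE, limma adjusted p = 0.117) and passed without WT replicate 1 (0.0318 to 0.459). Mmp9 is a known product of neutrophils, whose markers S100a8 and S100a9 were highest in WT replicate 2 and mdxTG replicate 3, at 2.37 and 3.12 and at 3.57 and 5.71 normalized CPM. Neither library was the highest of its group for Mmp9. Of 5 neutrophil markers 4 were in the sheet and 1, Csf3r, was tested; it rose in mdx against WT (log2 fold 1.50 ± 0.15 SE, limma adjusted p = 6.38e-06) and fell in mdxTG against mdx (log2 fold -0.89 ± 0.16 SE, limma adjusted p = 0.000752). The sums of the 4 ran from 1.18 to 7.44 normalized CPM in WT, from 4.54 to 5.27 in mdx and from 1.92 to 11.6 in mdxTG, and their part in the Mmp9 values was not tested.

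Mmp14 (chromosome 14, 54431612 to 54445364) encodes MT1-MMP, the membrane-anchored enzyme that activates the Mmp2 precursor with the help of TIMP2 and also cuts fibrillar collagen. It stood at 7.82, 10.1, 16.8, 14.8 and 18.8 normalized CPM in WT, 29.1, 32.1, 44.4 and 48.2 in mdx and 52.1, 80.5, 51.6 and 72 in mdxTG. The 3 groups did not overlap, with WT lowest and mdxTG highest. Mmp14 rose in mdx against WT (log2 fold 1.49 ± 0.24 SE, limma adjusted p = 0.00027), in mdxTG against mdx (log2 fold 0.73 ± 0.25 SE, limma adjusted p = 0.0411) and in mdxTG against WT (log2 fold 2.23 ± 0.24 SE, limma adjusted p = 2.52e-06). The call against mdx was lost without any one of WT replicate 4, mdx replicates 1 and 2 and mdxTG replicates 2 and 4, with adjusted p from 0.00565 to 0.122 over all alternatives. Mmp15 encodes the related MT2-MMP and had 23.1 ± 3.04 (SD, n = 5), 28.4 ± 3.93 (SD, n = 4) and 38.8 ± 4.16 normalized CPM (SD, n = 4) in WT, mdx and mdxTG. It rose in mdxTG against mdx (log2 fold 0.45 ± 0.12 SE, limma adjusted p = 0.0126) and against WT (log2 fold 0.74 ± 0.11 SE, limma adjusted p = 8.89e-05). Its log2 fold in mdx against WT was 0.29 ± 0.11 (SE, limma adjusted p = 0.0632); it passed with replicate number blocked in WT and mdx (log2 fold 0.28, limma adjusted p = 0.0338), with DESeq2, in plain CPM and without any one of WT replicates 1 and 3 and mdx replicate 2 (adjusted p 0.00394 to 0.164 over the alternatives). Mmp16 (chromosome 4, 17852893 to 18119145), for MT3-MMP, was scarce, at 0.386, 0.218, 0.395, 0.318 and 0.717 in WT, 0.873, 0.379, 1.03 and 0.966 in mdx and 1.42, 3.03, 1.6 and 2.33 in mdxTG. All mdxTG libraries lay above all others, while mdx replicate 2 was as low as WT. It rose in mdxTG against mdx (log2 fold 0.97 ± 0.23 SE, limma adjusted p = 0.0052) and against WT (log2 fold 1.50 ± 0.22 SE, limma adjusted p = 4.47e-05). In mdx against WT the log2 fold came to 0.52 ± 0.22 (SE, limma adjusted p = 0.0745). The difference passed with the block (log2 fold 0.63, limma adjusted p = 0.0133), with DESeq2, in plain CPM and without any one of WT replicate 5 and mdx replicate 2 (0.0133 to 0.209 over the alternatives). The block sets WT replicate 5 aside, so its log2 fold is the same as without that library. Mmp17, for the lipid-anchored MT4-MMP, passed in no comparison, with 1.06 to 1.63, 0.78 to 1.1 and 1.0 to 1.34 normalized CPM in WT, mdx and mdxTG.

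**Figure D3:**
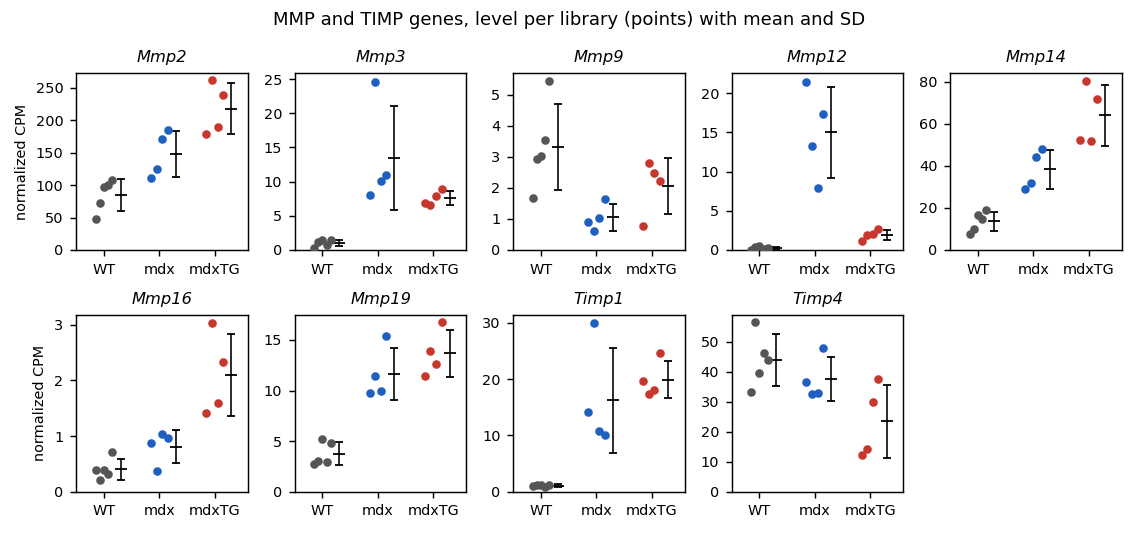
Normalized CPM of 7 Mmp and 2 Timp genes in each library (points, in order of replicate number) of WT, mdx and mdxTG, with the group mean and SD (bars; n = 5, 4 and 4). Mmp12 is highest in the 4 mdx libraries, Mmp3, Mmp19 and Timp1 are high in mdx and mdxTG, Mmp14 steps up from WT to mdx to mdxTG without overlap, and Timp4 is lowest in mdxTG replicates 1 and 2.

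Stromelysin 1 and macrophage elastase had the widest changes among the MMPs. Mmp12 (chromosome 9, 7344381 to 7369499), an elastin-cutting enzyme made mainly by macrophages, had 0.0242, 0.382, 0.473, 0.185 and 0.239 normalized CPM in WT, from 1, 14, 18, 7 and 12 reads. The mdx libraries had 21.5, 13.2, 7.93 and 17.4 normalized CPM and the mdxTG libraries 1.12, 1.9, 2.08 and 2.68. The groups did not overlap: every mdx library was above every mdxTG library, and every mdxTG library above every WT library. Mmp12 rose in mdx against WT (log2 fold 4.30 ± 0.27 SE, limma adjusted p = 1.33e-07), fell in mdxTG against mdx (log2 fold -2.62 ± 0.28 SE, limma adjusted p = 9.01e-06) and was higher in mdxTG than in WT (log2 fold 1.68 ± 0.27 SE, limma adjusted p = 0.000107). The pseudocount of 0.5 shrinks folds of so low a gene, and the authors' deposited table gives 5.86 for mdx against WT, -2.94 for mdxTG against mdx and 2.92 for mdxTG against WT. Mmp3 (chromosome 9, 7445822 to 7455975) encodes stromelysin 1, which cuts proteoglycans, laminin and fibronectin and activates other MMPs. Its levels were 0.338, 1.2, 1.47, 0.795 and 1.41 in WT, 7.99, 24.6, 10.1 and 11 in mdx and 6.85, 6.63, 7.93 and 8.86 in mdxTG. WT lay below both other groups, mdx replicate 2 stood far above the other mdx libraries, and mdx and mdxTG overlapped. Mmp3 rose in mdx (log2 fold 3.11 ± 0.29 SE, limma adjusted p = 3.62e-06) and mdxTG against WT (log2 fold 2.44 ± 0.29 SE, limma adjusted p = 7.72e-06), while mdxTG against mdx gave -0.66 ± 0.31 (log2 fold, SE, limma adjusted p = 0.126). Mmp13 (chromosome 9, 7272514 to 7283331), for the collagen-cutting collagenase 3, passed in no comparison and ranged widely, with 0.0265 to 1.87 across WT libraries, 1.4 to 2.38 across mdx libraries and 0.417 to 7.27 across mdxTG libraries. Its log2 folds against WT were 1.32 ± 0.57 in mdx (SE, limma adjusted p = 0.0899) and 1.40 ± 0.57 in mdxTG (SE, limma adjusted p = 0.0523). The first passed with replicate number blocked in WT and mdx (log2 fold 1.64, limma adjusted p = 0.00148), with a block over all libraries, in a fit without the mdxTG libraries and without WT replicate 5. The second passed with edgeR (adjusted p = 0.0302) and DESeq2 (0.0408) on the recovered reads, in plain CPM, with a pseudocount of 0.1, with a block over all libraries and without any one of WT replicate 5 and mdxTG replicates 1 and 4. A block sets WT replicate 5 aside, so its log2 folds are the same as without that library. The highest libraries for Mmp13 were mdxTG replicates 3 and 2, at 7.27 and 4.55. Of the cartilage and bone markers Ibsp and Col2a1, Ibsp was also highest in those libraries, at 3.93 and 0.931, beside 0 to 0.916 in WT and 0 to 0.379 in mdx. Col2a1 was instead highest in WT replicates 3 and 5, at 1.66 and 1.65, with 1.61 in mdxTG replicate 3 and 0.694 in mdxTG replicate 2. The part of these cells in the Mmp13 values was not tested.

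Mmp3, Mmp12 and Mmp13 all lie on chromosome 9 between 7272514 and 7455975 (mm10). A promoter of each holds the letters TGANTCA, the core that AP-1 transcription factors are known to recognise. The motif reads the same on both strands. It was found in the 250 bases upstream of the start for 4 of 36 member promoters (32 of the 50 genes had a RefSeq promoter), or 11.1%, beside 6.75% of all 32851 mouse promoters in the RefSeq table and 4.64% of the 13409 promoters of genes in the sheet. The fourth was Adam19, described below with the membrane proteases. The sequences of the 4 are shown because they are the member promoters with the motif, which is in capitals; each runs 5′ to 3′ up to a RefSeq transcript start, on the + strand of GRCm38.p6. For Mmp12 that start lies inside the gene as GENCODE gives it, which begins at 7344381. The other Mmp12 promoter, at 7344147 to 7344396, holds no match, and neither do the other Adam19 promoters. Counted from the first base of that transcript, the motif starts at -44 in Mmp12 (chr9:7347124-7347373), -46 in Mmp3 (chr9:7445572-7445821), -35 in Mmp13 (chr9:7272264-7272513) and -131 in Adam19 (chr11:46055734-46055983). A match of letters is no evidence of binding. In mdxTG against mdx, Mmp12 fell, with a log2 fold of -2.62, and the log2 folds of Mmp3 (-0.66), Mmp13 (0.08) and Adam19 (0.10) did not pass the threshold.
Mmp12: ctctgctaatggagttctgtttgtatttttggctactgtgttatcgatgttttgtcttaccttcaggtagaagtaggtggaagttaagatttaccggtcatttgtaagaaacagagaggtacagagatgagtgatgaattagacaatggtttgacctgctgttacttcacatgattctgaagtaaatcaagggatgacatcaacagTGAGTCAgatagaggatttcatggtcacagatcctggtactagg
Mmp3: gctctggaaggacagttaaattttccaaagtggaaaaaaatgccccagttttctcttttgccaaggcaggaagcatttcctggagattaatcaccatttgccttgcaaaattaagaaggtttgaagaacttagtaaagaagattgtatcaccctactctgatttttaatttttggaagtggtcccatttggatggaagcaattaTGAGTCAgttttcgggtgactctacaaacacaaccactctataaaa
Mmp13: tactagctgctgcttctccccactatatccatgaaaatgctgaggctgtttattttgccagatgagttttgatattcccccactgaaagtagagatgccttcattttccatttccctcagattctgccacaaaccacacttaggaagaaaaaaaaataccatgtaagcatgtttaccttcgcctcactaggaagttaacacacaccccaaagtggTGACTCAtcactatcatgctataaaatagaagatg
Adam19: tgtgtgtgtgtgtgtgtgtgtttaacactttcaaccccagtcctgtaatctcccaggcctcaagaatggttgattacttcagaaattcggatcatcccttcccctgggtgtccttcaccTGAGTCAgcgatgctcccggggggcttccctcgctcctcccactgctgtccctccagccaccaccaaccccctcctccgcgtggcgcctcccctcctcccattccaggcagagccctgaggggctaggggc

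Among the remaining MMPs, Mmp19 (chromosome 10, 128790910 to 128800824), a secreted enzyme that cuts basement membrane proteins, had 2.75, 3.08, 5.18, 2.91 and 4.84 normalized CPM in WT, 9.8, 11.4, 9.96 and 15.4 in mdx and 11.4, 13.9, 12.6 and 16.8 in mdxTG. WT did not overlap the other groups, which overlapped each other. Mmp19 rose in mdx (log2 fold 1.53 ± 0.19 SE, limma adjusted p = 3.39e-05) and in mdxTG (log2 fold 1.76 ± 0.19 SE, limma adjusted p = 2.37e-06) against WT. A stretch of 789 exon bases (22.3%) is shared with Tmem198b on the other strand, and whether reads were counted by strand is not given. Mmp11, or stromelysin 3, had 4.07 ± 0.826, 5.56 ± 0.245 and 6.79 ± 0.428 (SD, n = 5, 4 and 4) and rose in mdx (log2 fold 0.43 ± 0.12 SE, limma adjusted p = 0.0147) and mdxTG (log2 fold 0.69 ± 0.12 SE, limma adjusted p = 0.000272) against WT. It shares 155 exon bases with Chchd10 on the other strand, a gene at 436 normalized CPM. Mmp23 at 1.4 to 3.98, 2.63 to 3.83 and 3.29 to 4.14 in WT, mdx and mdxTG, and Mmp28, or epilysin, at 2.66 to 5.78, 2.65 to 4.6 and 2.87 to 4.54, passed in no comparison.

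The 4 inhibitors went different ways. Timp1 (chromosome X, 20870166 to 20874735), the inducible member, measured 1.01, 1.28, 1.24, 0.768 and 1.15 normalized CPM in WT, 14.1, 29.9, 10.8 and 10.01 in mdx and 19.6, 17.3, 18.1 and 24.6 in mdxTG. WT lay far below the other groups. The highest of all was mdx replicate 2, the library that was also highest for Mmp3. Timp1 rose in mdx (log2 fold 3.26 ± 0.24 SE, limma adjusted p = 6.22e-07) and in mdxTG (log2 fold 3.68 ± 0.24 SE, limma adjusted p = 2.17e-08) against WT. Between mdxTG and mdx the log2 fold came to 0.42 ± 0.26 (SE, limma adjusted p = 0.257); without mdx replicate 2 it was 0.75 and passed, with adjusted p from 0.00365 to 0.55 over the alternatives. Timp2 had 175 ± 52.2 (SD, n = 5), 207 ± 36.9 (SD, n = 4) and 315 ± 50.5 normalized CPM (SD, n = 4) in WT, mdx and mdxTG, and all mdxTG libraries lay above all others. It rose in mdxTG against mdx (log2 fold 0.61 ± 0.21 SE, limma adjusted p = 0.0441) and WT (log2 fold 0.89 ± 0.20 SE, limma adjusted p = 0.0019). Leaving out any one of WT replicate 4, mdx replicates 1 and 2 and mdxTG replicates 1, 2 and 4 ended the call against mdx (0.00495 to 0.125 over the alternatives). In mdx against WT its log2 fold came to 0.28 ± 0.20 (SE, limma adjusted p = 0.308). It passed with replicate number blocked in WT and mdx (log2 fold 0.41, limma adjusted p = 0.00562), a fit that sets WT replicate 5 aside.

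Timp3 stays bound to the matrix and also inhibits Adam17 and the ADAMTS enzymes that cut aggrecan. At 230.1 ± 51.1 in WT (SD, n = 5), 137 ± 39.8 in mdx (SD, n = 4) and 164 ± 24.1 normalized CPM in mdxTG (SD, n = 4), it fell in mdx (log2 fold -0.76 ± 0.18 SE, limma adjusted p = 0.00513) and mdxTG (log2 fold -0.47 ± 0.18 SE, limma adjusted p = 0.0411) against WT. In plain CPM neither passed (log2 fold -0.53, limma adjusted p = 0.0502 and log2 fold -0.10, limma adjusted p = 0.69), and the call for mdxTG was lost without any one of WT replicates 3, 4 and 5, mdx replicate 3 and mdxTG replicates 1, 3 and 4 (0.00834 to 0.69 over the alternatives). Timp4 (chromosome 6, 115241892 to 115252205), the inhibitor known for its expression in heart and muscle, had 33.1, 56.7, 39.7, 46.2 and 44 in WT, 36.5, 32.7, 32.9 and 48.1 in mdx and 12.1, 14.3, 30.04 and 37.5 in mdxTG. In mdxTG replicates 1 and 2 it was below every other library, whereas replicates 3 and 4 were near mdx. Timp4 fell in mdxTG against WT (log2 fold -1.02 ± 0.28 SE, limma adjusted p = 0.00624), though not in plain CPM (log2 fold -0.65, limma adjusted p = 0.0534). Its log2 fold in mdxTG against mdx was -0.80 ± 0.29 (SE, limma adjusted p = 0.0533) and passed without any one of WT replicates 1 and 2 and mdxTG replicates 3 and 4 (0.00932 to 0.162 over the alternatives). Timp1, Timp3 and Timp4 lie within introns or exons of the synapsin genes Syn1, Syn3 and Syn2 on the other strand; Timp3 shares 1733 exon bases (21.3%) with Syn3.

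Among membrane proteases of the ADAM family, Adam8 and Adam12 were high in mdx and lower in mdxTG. Adam8 (chromosome 7, 139978932 to 139992562), a sheddase of myeloid cells, had 0.604, 1.83, 2.76, 1.54 and 2.93 normalized CPM in WT, 12.3, 14.8, 12.6 and 21.2 in mdx and 3.56, 4.93, 4.35 and 7.89 in mdxTG. The 3 groups did not overlap, and mdx replicate 4 was the highest library. Adam8 rose in mdx against WT (log2 fold 2.76 ± 0.30 SE, limma adjusted p = 1.25e-05), fell in mdxTG against mdx (log2 fold -1.49 ± 0.32 SE, limma adjusted p = 0.00283) and was higher in mdxTG than in WT (log2 fold 1.28 ± 0.30 SE, limma adjusted p = 0.00243). Adam12 (chromosome 7, 133883199 to 134232146), or meltrin alpha, is known from fusing myoblasts and regenerating fibres. It stood at 0.411, 0.736, 1.08, 0.503 and 0.856 in WT, 3.19, 4.14, 4.71 and 7.54 in mdx and 1.44, 2.15, 1.71 and 2.01 in mdxTG, again without overlap. Adam12 rose in mdx against WT (log2 fold 2.12 ± 0.21 SE, limma adjusted p = 6.22e-06), fell in mdxTG against mdx (log2 fold -1.16 ± 0.22 SE, limma adjusted p = 0.00133) and rose in mdxTG against WT (log2 fold 0.95 ± 0.21 SE, limma adjusted p = 0.00159). Adam19 (chromosome 11, 46055992 to 46147343), meltrin beta, a sheddase of neuregulins, had 6.5, 8.92, 11.1, 9.75 and 10.8 in WT, 25.9, 24.9, 32.8 and 38.9 in mdx and 32.1, 40.05, 26.5 and 32.1 in mdxTG. The mdx and mdxTG libraries overlapped and all lay above WT. Adam19 rose in mdx (log2 fold 1.65 ± 0.17 SE, limma adjusted p = 6.6e-06) and mdxTG (log2 fold 1.75 ± 0.17 SE, limma adjusted p = 7.81e-07) against WT, and its log2 fold of mdxTG against mdx was 0.10 ± 0.18 (SE, limma adjusted p = 0.713).

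The general sheddases had smaller folds. Adam17, which releases TNF and ligands of the EGF receptor, had 27.2 ± 4.61, 36.5 ± 3.17 and 36.6 ± 1.63 normalized CPM in WT, mdx and mdxTG (SD, n = 5, 4 and 4) and rose in mdx (log2 fold 0.43 ± 0.11 SE, limma adjusted p = 0.00721) and mdxTG (log2 fold 0.44 ± 0.11 SE, limma adjusted p = 0.00391) against WT. Adam10, which cuts Notch, N-cadherin and the amyloid precursor, had 29.5 ± 2.76, 35 ± 3.76 and 37 ± 2.41 (SD, n = 5, 4 and 4). It rose in mdxTG against WT (log2 fold 0.32 ± 0.09 SE, limma adjusted p = 0.00632) and in mdx against WT (log2 fold 0.24 ± 0.09 SE, limma adjusted p = 0.0484). The latter call was lost without any one of WT replicates 1, 2 and 3, mdx replicates 1, 3 and 4 and mdxTG replicates 1, 2, 3 and 4 (0.00364 to 0.205 over the alternatives). Adam9, the most abundant ADAM gene per length, had 101 ± 11.6, 92.1 ± 5.11 and 75.1 ± 3.22 (SD, n = 5, 4 and 4) and fell in mdxTG against mdx (log2 fold -0.29 ± 0.09 SE, limma adjusted p = 0.0234) and WT (log2 fold -0.41 ± 0.08 SE, limma adjusted p = 0.00082). In plain CPM neither fall passed (log2 fold -0.15, limma adjusted p = 0.268 and log2 fold -0.04, limma adjusted p = 0.728), and the first was lost without any one of the libraries mdx replicates 3 and 4 and mdxTG replicates 1 and 2 (adjusted p 0.00345 to 0.268 over the alternatives). In mdx against WT its log2 fold came to -0.12 ± 0.08 (SE, limma adjusted p = 0.278), which passed without WT replicate 2 (0.0289 to 0.53 over the alternatives). Adam15, at 27.8 to 40.5, 37.5 to 44.1 and 33.7 to 42.3 in the 3 groups, and Adam33, at 7.2 to 15.7, 7.73 to 9.25 and 5.95 to 10.6, passed in no comparison. Adam15 shares 1263 exon bases (20.6%) with an antisense transcript.

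A subgroup of ADAM proteins has lost the protease activity and acts in cell contacts, in the nervous system as receptors of LGI proteins. Adam23 (chromosome 1, 63445891 to 63596276) had 2.32, 2.54, 2.89, 2.99 and 4.06 normalized CPM in WT, 2.53, 2.92, 3.35 and 4.3 in mdx and 7.33, 8.57, 6.16 and 9.27 in mdxTG. All mdxTG libraries lay above all others, and WT and mdx overlapped. Adam23 rose in mdxTG against mdx (log2 fold 1.15 ± 0.17 SE, limma adjusted p = 0.000196) and against WT (log2 fold 1.27 ± 0.16 SE, limma adjusted p = 1.61e-05), with a log2 fold of 0.12 ± 0.16 (SE, limma adjusted p = 0.592) in mdx against WT. Adam22 had 5.32 ± 1.06, 3.57 ± 0.285 and 3.72 ± 0.247 (SD, n = 5, 4 and 4) and fell in mdx (log2 fold -0.50 ± 0.13 SE, limma adjusted p = 0.00912) and mdxTG (log2 fold -0.44 ± 0.13 SE, limma adjusted p = 0.0106) against WT. In plain CPM neither passed (log2 fold -0.29, limma adjusted p = 0.121 and log2 fold -0.11, limma adjusted p = 0.525). Adam11 passed in no comparison, at 1.27 to 2.26, 0.938 to 1.42 and 1.17 to 1.67. Adam1a, at 1.31 to 2.21, 1.58 to 2.29 and 1.38 to 1.65, is uncertain, since 63.7% of its exon bases are shared with Gm42878 and 24% with Mapkapk5 on the same strand.

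**Figure D4:**
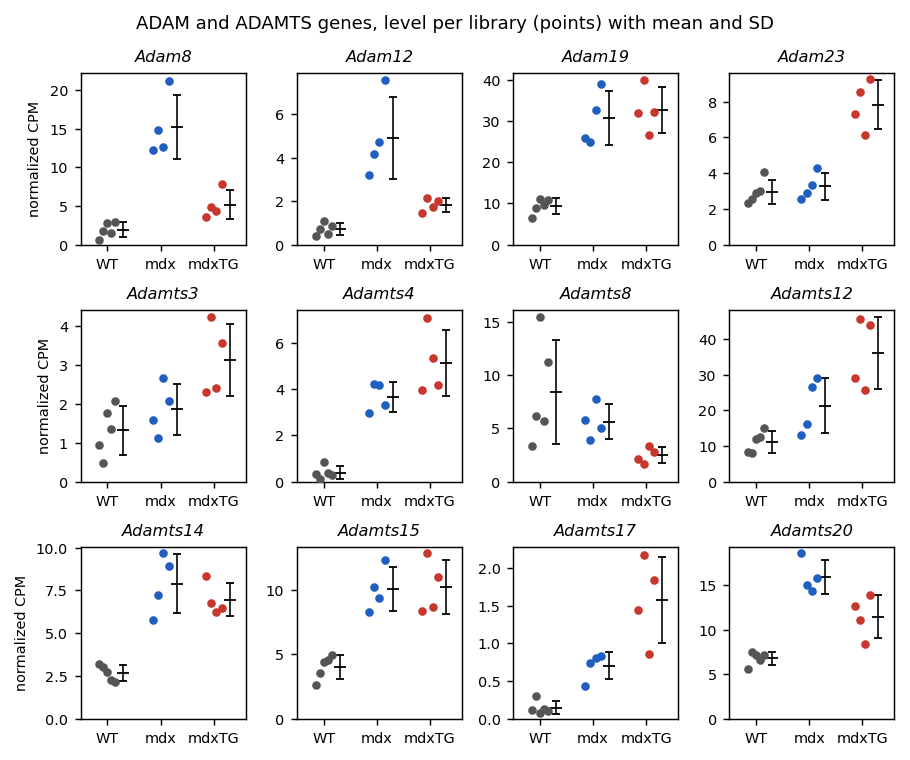
Normalized CPM of 4 Adam and 8 Adamts genes in each library (points, in order of replicate number) of WT, mdx and mdxTG, with the group mean and SD (bars; n = 5, 4 and 4). Adam8, Adam12 and Adamts20 are highest in mdx, Adam23 and Adamts17 are highest in mdxTG, and Adamts8 is lowest in mdxTG.

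The ADAMTS enzymes that cut the proteoglycans aggrecan and versican divided among themselves. Adamts4 (chromosome 1, 171250421 to 171260637), aggrecanase 1, had 0.314, 0.109, 0.868, 0.371 and 0.279 normalized CPM in WT, 2.95, 4.21, 4.16 and 3.3 in mdx and 3.94, 7.07, 5.34 and 4.16 in mdxTG. WT, from 13, 4, 33, 14 and 14 reads, did not overlap the other groups, which overlapped each other. Adamts4 rose in mdx (log2 fold 2.27 ± 0.21 SE, limma adjusted p = 3.62e-06) and in mdxTG (log2 fold 2.68 ± 0.21 SE, limma adjusted p = 1.33e-07) against WT. Adamts15 (chromosome 9, 30899155 to 30922452), a versican-cutting enzyme, had 2.66, 3.57, 4.42, 4.58 and 4.92 in WT, 8.31, 10.3, 9.42 and 12.3 in mdx and 8.37, 12.9, 8.72 and 11 in mdxTG. Here too WT was below both other groups without overlap. Adamts15 rose in mdx (log2 fold 1.24 ± 0.17 SE, limma adjusted p = 8.45e-05) and mdxTG (log2 fold 1.25 ± 0.17 SE, limma adjusted p = 2.58e-05) against WT. Adamts20 (chromosome 15, 94270163 to 94465418), related to Adamts9, was highest in mdx, with 5.6, 7.53, 7.13, 6.57 and 7.17 in WT, 18.7, 15, 14.3 and 15.8 in mdx and 12.7, 11, 8.38 and 13.9 in mdxTG. The 3 groups did not overlap. It rose in mdx against WT (log2 fold 1.17 ± 0.13 SE, limma adjusted p = 1.85e-05), fell in mdxTG against mdx (log2 fold -0.47 ± 0.14 SE, limma adjusted p = 0.0211) and rose in mdxTG against WT (log2 fold 0.70 ± 0.13 SE, limma adjusted p = 0.000501). The fall against mdx was lost in plain CPM (log2 fold -0.34, limma adjusted p = 0.11) and without any one of mdx replicate 1 and mdxTG replicates 2 and 3 (0.00683 to 0.11 over the alternatives).

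Adamts8 (chromosome 9, 30942562 to 30963838), a neighbour of Adamts15, showed the opposite direction to it in mdxTG. Its levels were 3.38, 6.16, 15.4, 5.67 and 11.2 in WT, 5.78, 3.94, 7.75 and 5.06 in mdx and 2.17, 1.68, 3.36 and 2.76 in mdxTG. WT spread widely and overlapped mdx, while all mdxTG libraries were below all mdx and all WT libraries, by a narrow margin for WT replicate 1. Adamts8 fell in mdxTG against mdx (log2 fold -1.03 ± 0.35 SE, limma adjusted p = 0.0402) and WT (log2 fold -1.42 ± 0.33 SE, limma adjusted p = 0.00241). The call against mdx was lost in plain CPM (log2 fold -0.92, limma adjusted p = 0.0683) and without any one of mdx replicates 1, 3 and 4 and mdxTG replicates 1, 2 and 4 (0.00369 to 0.114 over the alternatives). Adamts1 and Adamts5 are also neighbours, on chromosome 16 between 85793827 and 85901828, and also moved apart. Adamts1, a versican-cutting enzyme that also restrains blood vessel growth, had 52.7 ± 10.5, 32.6 ± 2.16 and 42.5 ± 4.23 (SD, n = 5, 4 and 4). It fell in mdx against WT (log2 fold -0.66 ± 0.13 SE, limma adjusted p = 0.00102) and rose in mdxTG against mdx (log2 fold 0.37 ± 0.13 SE, limma adjusted p = 0.0475). The latter was lost without any one of WT replicates 3 and 4, mdx replicates 1, 2 and 4 and mdxTG replicates 1, 2, 3 and 4 (0.00596 to 0.138 over the alternatives). Its log2 fold in mdxTG against WT was -0.29 ± 0.13 (SE, limma adjusted p = 0.0657) and passed without either of WT replicate 2 and mdxTG replicate 2 (0.00427 to 0.611 over the alternatives). Adamts5, the main aggrecanase of mouse cartilage, had 29 ± 5.04, 44.5 ± 6.28 and 37 ± 5.47 (SD, n = 5, 4 and 4) and rose in mdx (log2 fold 0.61 ± 0.13 SE, limma adjusted p = 0.00275) and mdxTG (log2 fold 0.35 ± 0.13 SE, limma adjusted p = 0.039) against WT. The mdxTG call was lost without any one of WT replicates 1, 2, 3 and 4 and mdxTG replicates 2 and 4 (0.00105 to 0.178 over the alternatives). Adamts9, which cuts versican, had 9.1 ± 2.19, 16.7 ± 1.46 and 14.8 ± 3.12 (SD, n = 5, 4 and 4) and rose in mdx (log2 fold 0.87 ± 0.17 SE, limma adjusted p = 0.00138) and mdxTG (log2 fold 0.68 ± 0.17 SE, limma adjusted p = 0.00408) against WT.

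The procollagen N-proteinases Adamts2, Adamts3 and Adamts14 remove the amino-terminal propeptide of fibrillar procollagens. Adamts14 (chromosome 10, 61197112 to 61273438) had 3.21, 3.05, 2.76, 2.25 and 2.15 normalized CPM in WT, 5.78, 7.26, 9.68 and 8.91 in mdx and 8.37, 6.78, 6.21 and 6.49 in mdxTG. WT was below both other groups, which overlapped. Adamts14 rose in mdx (log2 fold 1.39 ± 0.15 SE, limma adjusted p = 1.24e-05) and in mdxTG (log2 fold 1.23 ± 0.15 SE, limma adjusted p = 9.38e-06) against WT. Adamts3 (chromosome 5, 89677087 to 89883334) had 0.942, 0.491, 1.76, 1.35 and 2.07 in WT, 1.59, 1.11, 2.67 and 2.07 in mdx and 2.31, 4.24, 2.42 and 3.57 in mdxTG. The mdxTG libraries lay above all WT libraries, and mdx overlapped both. Adamts3 rose in mdxTG against WT (log2 fold 1.04 ± 0.27 SE, limma adjusted p = 0.005). Its log2 fold in mdx against WT, 0.41 ± 0.27 (SE, limma adjusted p = 0.268), passed with replicate number blocked in WT and mdx (log2 fold 0.55, limma adjusted p = 0.00969). Adamts2, the most abundant of the 3 per length, had 29.3 ± 10.4, 47.7 ± 12.1 and 49.6 ± 14.5 (SD, n = 5, 4 and 4), with overlap between all groups. Adamts2 passed upward in mdx (log2 fold 0.74 ± 0.26 SE, limma adjusted p = 0.0398) and mdxTG (log2 fold 0.78 ± 0.26 SE, limma adjusted p = 0.0201) against WT. The first call was lost without any one of WT replicates 1, 2 and 4 and mdx replicates 3 and 4 (0.000492 to 0.218 over the alternatives) and the second without either of mdxTG replicates 2 and 4 (0.00258 to 0.135).

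Adamts12 and Adamts7 cut the matrix protein COMP. Adamts12 (chromosome 15, 11064790 to 11349231) had 8.24, 8.02, 12.1, 12.5 and 15.1 normalized CPM in WT, 13.2, 16.2, 26.4 and 29.1 in mdx and 29, 45.6, 25.7 and 44 in mdxTG. Replicates 2 and 4 of mdxTG stood above all other libraries, its replicates 1 and 3 were within the range of mdx, and all mdxTG libraries were above WT. Adamts12 rose in mdx against WT (log2 fold 0.86 ± 0.25 SE, limma adjusted p = 0.0167), in mdxTG against mdx (log2 fold 0.78 ± 0.27 SE, limma adjusted p = 0.042) and in mdxTG against WT (log2 fold 1.64 ± 0.25 SE, limma adjusted p = 8.56e-05). The first call was lost without either of mdx replicates 3 and 4 (0.000347 to 0.0911 over the alternatives) and the second without any one of WT replicates 3 and 4, mdx replicates 1 and 2 and mdxTG replicates 2 and 4 (0.0134 to 0.133). Adamts7 had 2.29 ± 0.591, 4.35 ± 0.572 and 4.84 ± 0.991 (SD, n = 5, 4 and 4) and rose in mdx (log2 fold 0.82 ± 0.16 SE, limma adjusted p = 0.00137) and mdxTG (log2 fold 0.94 ± 0.16 SE, limma adjusted p = 0.00021) against WT. Adamts17 (chromosome 7, 66839735 to 67153171), which in humans is linked to microfibrils of fibrillin, was scarce, with 0.121, 0.30, 0.0789, 0.132 and 0.0996 in WT, from 5, 11, 3, 5 and 5 reads, 0.436, 0.735, 0.81 and 0.834 in mdx and 1.44, 2.17, 0.856 and 1.83 in mdxTG. The 3 groups did not overlap. Adamts17 rose in mdx against WT (log2 fold 0.89 ± 0.19 SE, limma adjusted p = 0.00214), in mdxTG against mdx (log2 fold 0.76 ± 0.20 SE, limma adjusted p = 0.0107) and in mdxTG against WT (log2 fold 1.65 ± 0.19 SE, limma adjusted p = 4.89e-06). Adamts16 had 0.665 ± 0.129, 0.937 ± 0.215 and 1.09 ± 0.184 (SD, n = 5, 4 and 4) and rose in mdxTG against WT (log2 fold 0.44 ± 0.14 SE, limma adjusted p = 0.0127). The fibrillin-associated Adamts6, at 2.62 to 4.34, 2.5 to 3.58 and 1.77 to 2.6 in the 3 groups, and Adamts10, at 17.5 to 35, 22.2 to 24 and 16.7 to 21.8, passed in no comparison.

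ADAMTS-like proteins have the binding domains of the ADAMTS enzymes and no protease domain, and several bind fibrillin microfibrils. Adamtsl5 had 49.6 ± 4.79 in WT (SD, n = 5), 56.1 ± 8.01 in mdx (SD, n = 4) and 98.4 ± 8.12 normalized CPM in mdxTG (SD, n = 4). All mdxTG libraries, at 87.5 to 105, lay above all others. It rose in mdxTG against mdx (log2 fold 0.81 ± 0.11 SE, limma adjusted p = 5.5e-05) and against WT (log2 fold 0.98 ± 0.10 SE, limma adjusted p = 1.64e-06). Adamtsl4 had 39.8 ± 2.47, 27 ± 5.8 and 24 ± 5.29 (SD, n = 5, 4 and 4) and fell in mdx (log2 fold -0.57 ± 0.14 SE, limma adjusted p = 0.00563) and mdxTG (log2 fold -0.74 ± 0.14 SE, limma adjusted p = 0.000465) against WT, the former not in plain CPM (log2 fold -0.34, limma adjusted p = 0.0672). Adamtsl2 had 3.31 ± 0.507, 3.93 ± 0.621 and 5.27 ± 1.8 (SD, n = 5, 4 and 4). It rose in mdxTG against WT (log2 fold 0.56 ± 0.18 SE, limma adjusted p = 0.0176), a call lost without mdxTG replicate 3 (0.000661 to 0.0731 over the alternatives). Its log2 fold in mdxTG against mdx was 0.34 ± 0.19 (SE, limma adjusted p = 0.206) and passed without mdxTG replicate 1 (0.0393 to 0.548). Adamtsl1, at 5.55 to 15.7, 7.06 to 16.2 and 9.12 to 19.2 in the 3 groups, and Adamtsl3, at 5.63 to 19.1, 7.29 to 11.8 and 8.23 to 18, passed in no comparison.

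The genes that act on these enzymes, and the proteins they cut, were read from 2 lists chosen by role. Of 44 activators, inhibitors and binding partners, 38 were in the sheet. In mdx against WT 10 of these rose and 2 fell, beside 18.5% and 16.1% of all genes tested. In mdxTG against mdx 15 rose and 5 fell, beside 15.4% and 12.9%, and in mdxTG against WT 23 rose and 5 fell, beside 28.7% and 25.3%. Their median log2 folds were 0.23, 0.45 and 0.63 in that order. The hyaluronan receptor Cd44, which anchors MMPs at the cell surface, had 10.4, 34.7 and 47.6 normalized CPM on average and rose in mdx (log2 fold 1.71 ± 0.13 SE, limma adjusted p = 5.65e-07) and further in mdxTG (log2 fold 0.46 ± 0.13 SE, limma adjusted p = 0.0185 against mdx). Serpina3n, a serine protease inhibitor, had 4.13, 34.7 and 15.8. It rose in mdx against WT (log2 fold 2.98 ± 0.27 SE, limma adjusted p = 3.06e-06) and fell in mdxTG against mdx (log2 fold -1.20 ± 0.29 SE, limma adjusted p = 0.00615). Cd151, a tetraspanin that binds integrins and associates with MMPs, had 96.7, 96.1 and 166 and rose in mdxTG against mdx (log2 fold 0.78 ± 0.07 SE, limma adjusted p = 2.15e-06). Tspan17, a tetraspanin partner of Adam10, had 11.2, 14.8 and 29.8 and rose in mdx against WT (log2 fold 0.38 ± 0.11 SE, limma adjusted p = 0.0141) and in mdxTG against mdx (log2 fold 0.99 ± 0.12 SE, limma adjusted p = 2.02e-05). Of the other tetraspanin partners of Adam10 in the list, Tspan15 rose (0.73) and Tspan14 (-0.57) and Tspan33 (-0.44, log2 folds) fell in mdxTG against mdx, while Tspan5 did not pass (0.73, with 0.417 to 11.1 normalized CPM in mdxTG).

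Of 48 substrates, 40 were in the sheet. In mdx against WT 17 rose and 2 fell, and in mdxTG against WT 26 rose and 1 fell, where all genes have the shares just given. In mdxTG against mdx 6 rose and 4 fell, which is near the 15.4% and 12.9% of all genes. The median log2 folds were 0.56 in mdx against WT, 0.27 in mdxTG against mdx and 0.70 in mdxTG against WT. Trem2, a macrophage receptor shed by Adam10 and Adam17, had 0.785, 12 and 5.49 normalized CPM on average. It fell in mdxTG against mdx (log2 fold -1.07 ± 0.20 SE, limma adjusted p = 0.000993). The matrix protein osteopontin, Spp1, had 4.41, 40.2 and 6.8. It rose in mdx against WT (log2 fold 3.07 ± 0.33 SE, limma adjusted p = 1.08e-05) and fell in mdxTG against mdx (log2 fold -2.44 ± 0.34 SE, limma adjusted p = 0.000113). The membrane-bound chemokine Cx3cl1, with 2.76, 4.21 and 22.8, rose in mdx against WT (log2 fold 0.54 ± 0.20 SE, limma adjusted p = 0.0448) and in mdxTG against mdx (log2 fold 2.26 ± 0.21 SE, limma adjusted p = 1.96e-06). Egf, a growth factor released by shedding, had 44.1, 27.2 and 64.6; it fell in mdx against WT (log2 fold -0.68 ± 0.13 SE, limma adjusted p = 0.00117) and rose in mdxTG against mdx (log2 fold 1.24 ± 0.14 SE, limma adjusted p = 1.32e-05). Over both lists, 27 of 78 genes rose and 4 fell in mdx against WT. With replicate number blocked in WT and mdx alone, 50 rose there (19.8% of all genes did).

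Some markers of other cell types moved in the same direction as Mmp12, Adam8 and Adam12, and others did not. Of 8 macrophage markers (Adgre1, Cd68, Csf1r, Itgam, Lyz2, Mrc1, Cd163 and Mpeg1), 6 rose in mdx against WT, and none of the 8 was at 0. In mdxTG against mdx 1 rose, 2 fell and 5 did not pass. Their sums ran from 89.9 to 284 normalized CPM in WT, from 489 to 933 in mdx and from 462 to 645 in mdxTG. Itgam fell in mdxTG against mdx (log2 fold -1.01 ± 0.19 SE, limma adjusted p = 0.00138), as did Mpeg1 (log2 fold -1.27 ± 0.36 SE, limma adjusted p = 0.0169), whereas Cd68 rose (log2 fold 1.63 ± 0.23 SE, limma adjusted p = 9.9e-05). The mdx library highest for Mmp12, replicate 1 at 21.5, was the lowest mdx library for every macrophage marker but Itgam. Itgam was lowest in mdx replicate 3, at 5.50 beside 5.98 in replicate 1, and replicate 3 was also lowest for Mmp12, at 7.93. All 5 markers of regenerating fibres (Myh3, Myh8, Myog, Mymk and Mymx) rose in mdx against WT and 4 of them fell in mdxTG against mdx. Their sums ran from 9.43 to 65.2 in WT, from 145 to 455 in mdx and from 84.3 to 123 in mdxTG. WT replicate 3 had the highest WT value for both Myh3, at 39.2, and Adam12, at 1.08. Among mdx libraries replicate 4 was highest for both, at 264 and 7.54. Among mdxTG libraries replicate 2 was highest for Adam12, at 2.15, and lowest for Myh3, at 26.3. The part of these cells in the values of Mmp12, Adam8 and Adam12 was not tested. In bulk muscle, fewer cells of a type and less RNA per cell cannot be told apart.

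**Figure D5:**
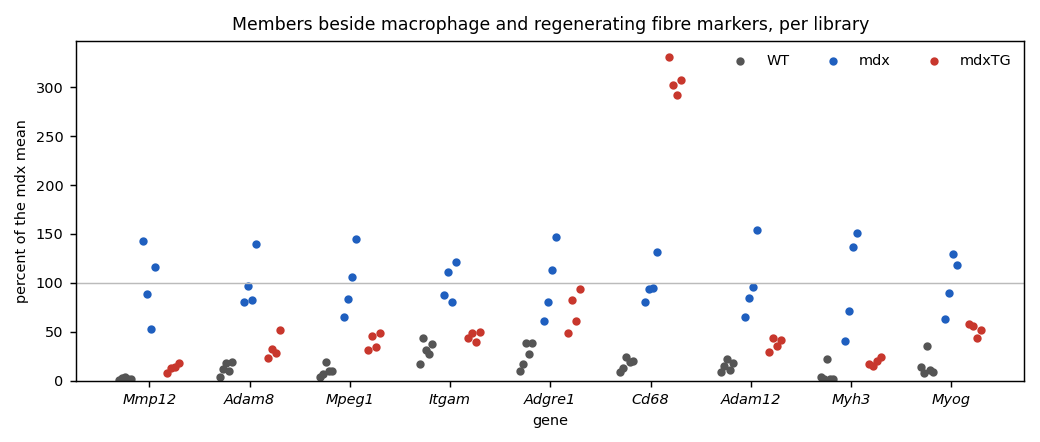
Level in each library as a percentage of the mdx mean of the same gene, for Mmp12, Adam8 and Adam12 and for markers of macrophages (Mpeg1, Itgam, Adgre1, Cd68) and regenerating fibres (Myh3, Myog); points are single libraries and the grey line marks the mdx mean. Mmp12, Adam8, Adam12, Mpeg1 and Itgam are lower in all 4 mdxTG libraries than in all mdx libraries, as are Myh3 and Myog. Adgre1 overlaps, and Cd68 is higher. Of the markers not shown, Lyz2, Csf1r, Mrc1, Cd163 and Myh8 overlap between mdx and mdxTG, and Mymk and Mymx do not.

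Few markers of connective tissue cells passed the test. Of 6 markers of fibro-adipogenic progenitors, 1 rose in mdx against WT, none passed in mdxTG against mdx, and 3 rose and 1 fell in mdxTG against WT. Their sums ran from 233 to 392 normalized CPM in WT, from 334 to 546 in mdx and from 416 to 655 in mdxTG. Of 6 tendon cell markers none passed in mdx against WT or in mdxTG against mdx, and 2 rose in mdxTG against WT. Their sums ran from 145 to 943 in WT, from 344 to 711 in mdx and from 455 to 1036 in mdxTG. The tendon marker Fmod was lowest in WT replicates 1 and 2 and mdx replicates 1 and 2, at 58.3, 149.8, 88.1 and 107. Adamts12, Adamts2, Mmp2 and Mmp14 were also lowest in these libraries within their groups. Leaving out only WT replicates 1 and 2, with the low mdx libraries kept, therefore raises the WT mean of these genes. It ended the calls of Adamts12 (log2 fold 0.60, limma adjusted p = 0.0911) and Adamts2 (log2 fold 0.38, limma adjusted p = 0.218) in mdx against WT. Mmp2 and Mmp14 still rose in mdx there (log2 fold 0.51, limma adjusted p = 0.0339 and log2 fold 1.15, limma adjusted p = 0.00055). The part of tendon cells in these values was not tested.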

How the data were processed

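Polyadenylated RNA of mouse tibialis anterior was measured in 5 WT, 4 mdx and 4 mdxTG libraries, made with a stranded mRNA kit per the labels' protocols. The submitters' processing notes name mm10 and the tools bcl2fastq (2.17), STAR and edgeR; the counting of reads, its use of strand and its annotation are not given there. The authors deposited a normalized signal per gene, called CPM in their sheet, that divides reads by a scaled library size. Divided by the step of its library, 100% of the values were whole to within 0.001 reads, so the reads were recovered. The scaling factors this implies ran from 0.831 to 0.932 in WT, from 1.006 to 1.068 in mdx and from 1.107 to 1.191 in mdxTG. The authors' deposited tables of comparisons hold log2 fold changes with p-values and adjusted p-values; the authors' mapping sheet gives read counts and mapped fractions per library (53.26 to 68.44 M reads, 80.94 to 88.62 percent uniquely mapped).

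Log2 of normalized CPM plus 0.5 was tested with limma 3.58.1 in R 4.3.3 (empirical Bayes trend, all 13 libraries, 1 mean per genotype, two-sided). Tested were the 13831 genes with at least 0.5 normalized CPM in 4 or more libraries, with Benjamini-Hochberg adjustment over them; "rose" and "fell" mean an adjusted p under 0.05. The pseudocount understates folds of low genes. Coordinates and exon lengths are from GENCODE M21 (mm10) and promoters from RefSeq (GRCm38.p6). The fit was tested on simulated data. The values of 1 marker list and 1 exon overlap are not reported here. Members and lists were chosen with earlier results of these data known. Of the members, 21 that passed in a comparison with a mean of at least 1 normalized CPM and a log2 fold of at least 1 in size are given by library, 17 others that passed by means, and 12 by range; of each partner list the 4 genes with the smallest p are named first, and the tetraspanins named after them were chosen after their values were seen. Alternatives were edgeR 4.0.16 and DESeq2 1.42.0 on the recovered reads, other pseudocounts, no filter, plain CPM, only the compared groups, a replicate block and each library left out. Replicate numbers come from the labels, which do not say what they mark. They follow the order of the library identifiers within each group, which states no link between libraries of different groups. Residuals of same-numbered WT and mdx libraries correlated at r = 0.336, 0.446, 0.326 and 0.183. From these same data, the numbers were treated as pairs in the block of WT and mdx alone. Some libraries of different number correlated as much: WT replicate 5 had 0.477 with mdx replicate 4 and 0.363 with mdx replicate 3. WT replicate 3 had 0.3 with mdx replicate 4, while WT replicate 5 had -0.453 with mdx replicate 1. The residuals alone do not establish pairing by number, on which calls with the block rest. Only WT has a replicate 5, so a block sets that library aside. Log2 folds with a block are thus those without WT replicate 5. Same-numbered mdxTG libraries (0.407, -0.355, -0.187 and 0.323 with mdx) were not taken to pair with mdx or WT.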

Additional observations from a re-analysis of the deposited data

Results flagged for a closer look

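In each of the 150 sets of libraries formed by 1 of the 50 genes in 1 genotype, the highest or lowest library was compared with the rest, and 7 sets had a library far from the others; chance alone gives about 1 in 20. WT replicate 2 was the high library for Adamts10, at 35 normalized CPM where the other WT libraries had 17.5 to 20.3. The same library was high for Adamts6, at 4.34 against 2.62 to 3.05, and for Adamts17, at 0.30 against 0.0789 to 0.132. WT replicate 1 was low for Mmp28, at 2.66 against 5.21 to 5.78. In mdx, replicate 3 was high for Adamts1, at 35.9 against 31.2 to 31.8. In mdxTG, replicate 1 was low for Adam17, at 34.1 against 37.3 to 37.6, and replicate 4 was high for Adamtsl4, at 31.8 against 20.3 to 22.1. The rise of Adamts17 and the fall of Adamts1 in mdx against WT passed without each of these libraries.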

How the results depend on the processing

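The log2 folds of the 38 members that passed in some comparison were followed over the alternatives. The same side of the threshold was kept by 831 of 874 values in mdx against WT and 775 of 836 in mdxTG against mdx. In mdxTG against WT it was kept by 807 of 836. In that order, 24, 42 and 23 no longer passed and 19, 19 and 6 newly passed. Of values that passed in the main fit or the alternative, 0 reversed direction. For values that passed in neither, direction was not compared. Members fallen numbered 5, 6 and 6 in the 3 comparisons, and 2, 3 and 2 in plain CPM. Partner genes risen in mdx against WT numbered 27, beside 43 in plain CPM, 41 with a replicate block in all libraries and 50 with it in WT and mdx alone; those fallen numbered 4 and, in plain CPM, 2, and in mdxTG against WT 6 and 1. Without WT replicates 1 and 2, an alternative chosen after seeing the data like the block in WT and mdx alone, 8 members and 9 partner genes fell in mdx against WT. The share of all genes that fell there, or that rose with the block in all libraries, is not given here. These counts are therefore not read as a result about the members or partner genes. With each library left out in turn, members risen numbered 19 to 24, 5 to 10 and 28 to 31, members fallen 5 to 6, 3 to 7 and 5 to 9, partner genes risen 22 to 30, 13 to 24 and 39 to 52, partner genes fallen 3 to 5, 7 to 10 and 4 to 8, and all genes changed 3780 to 5257, 3121 to 4591 and 6608 to 7819. Rises in mdxTG against mdx fell to 5 without WT replicate 4, mdxTG replicate 2 or 4, or mdx replicate 1, and falls to 3 without mdxTG replicate 2. The replicate block in WT and mdx alone changed no member's call in mdx against WT besides those of Timp2, Mmp13, Mmp15, Mmp16 and Adamts3, all 5 of which newly rose. Of the 12 members that passed in no comparison, Mmp13, Mmp23, Mmp28, Adam15, Adam33 and Adamts10 passed in 1 or more alternatives: Mmp28 fell against WT in mdx (adjusted p = 0.0116) and mdxTG (0.0111) without WT replicate 1, Adamts10 rose in mdx without WT replicate 2 (0.00982), Adam33 fell in mdxTG against WT without WT replicate 1 (0.0249) or mdxTG replicate 1 (0.0483), and in plain CPM Adam15 rose in mdx (0.0113) and mdxTG (0.00313) and Mmp23 in mdxTG (0.0133) against WT. Timp4 fell in mdxTG against mdx with a replicate block (0.0307). Mmp11 rose in mdxTG against mdx with only these groups in the fit (0.0300) and in plain CPM (0.0456). In plain CPM Adamtsl5 (0.00656) and Adamts16 (0.0240) rose in mdx against WT. The call of Adam10 in mdx against WT was lost with only these groups in the fit (0.0862), and DESeq2 called Adamts1 lower in mdxTG than in WT (0.0278). Without WT replicates 1 and 2, the calls of Adam10 in mdx and of Adamts2, Adamts5 and Adamtsl2 in mdxTG against WT were lost, and Adam9, Adamts8 and Mmp28 fell and Adamts10 rose in mdx against WT, while falls were called for Adamts1, Mmp9 and Mmp28 in mdxTG against WT, and for Timp4 in mdxTG against mdx, where Mmp2, Adamts3 and Mmp11 rose. Why these counts move was not tested beyond the scaling, the block and the libraries named. Reads limit the lowest genes: 1 to 18 reads of Mmp12 and 3 to 11 of Adamts17 in WT.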

Other observations

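Some members had a similar order of libraries within each genotype; the 8 named first were chosen for this after their values were seen and are given as values only. In mdxTG, replicates 2 and 4 were higher than replicates 1 and 3 for Mmp2, Mmp14, Timp2, Timp3, Adamts2, Adamts3, Adamts12 and Adamtsl3. For Timp2 they had 367 and 349 normalized CPM, against 282 and 263. In mdx, replicates 3 and 4 were higher than 1 and 2 for these genes, with 237 and 239 against 167 and 184 for Timp2. In WT, replicate 1 or 2 was the lowest for each of them, with 105 and 148 for Timp2 against 178 to 243 in replicates 3 to 5. Further members also kept this order, among them Adam12 and Adam23. In mdxTG replicates 1 to 4, Adam23 had 7.33, 8.57, 6.16 and 9.27. Others did not follow it: Adamts14 was highest in WT replicate 1 (3.21) and mdxTG replicate 1 (8.37), Adamtsl4 in WT replicate 1 (43.2), and among mdx libraries Timp1 and Mmp3 in replicate 2. Nor did Timp4 in mdxTG, where its replicates 1 and 2 were low at 12.1 and 14.3 and replicates 3 and 4 had 30.04 and 37.5.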
